A study of Mus musculus and Homo sapiens with 12 samples.

Results

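The genes described here are 10 components of the protein-folding machinery of the endoplasmic reticulum (ER) and of the unfolded protein response, chosen by name in both expression tables: HSPA5, HSP90B1, CALR, CANX, PDIA4, SYVN1, HERPUD1, XBP1, ATF4 and DDIT3. They were found by symbol among 54331 mouse identifiers and by Ensembl identifier among 60233 human identifiers, and all 10 were present in each table. The samples were PFKFB4-KO and WT cells of EMT6, a mouse breast cancer line, and PFKFB4-KO and WT cells of MDA-MB-231, a human breast cancer line, with 3 libraries per group and 12 in all. PFKFB4 is a bifunctional enzyme that makes and breaks down a sugar phosphate activator of glycolysis. All cells were grown in high-glucose medium with serum, and polyadenylated RNA was sequenced from a single end. No sample carried a drug or another allele according to the labels, which name neither the edited stretch of PFKFB4 nor whether a knockout line was 1 clone. Values are in TPM, a transcript abundance that is corrected for length and adds up to 1000000 over the genes of a library.

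Secreted and membrane proteins fold in the ER with the help of chaperones, lectins that hold glycoproteins, and enzymes that form disulfide bonds, and proteins that fail to fold are sent back to the cytosol for degradation. When unfolded proteins accumulate, the sensors IRE1, PERK and ATF6 start the unfolded protein response. IRE1 splices XBP1 RNA and ATF6 is cut to release a transcription factor, and both products switch on chaperone and degradation genes. PERK slows translation in general while translation of ATF4 goes up, and ATF4 in turn activates DDIT3, which encodes CHOP.

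Many ER chaperone promoters carry an ER stress response element (ERSE), the sequence CCAAT, 9 bases of any kind and CCACG, which is bound by ATF6 together with NF-Y. A second form, ERSE-II, reads ATTGG, 1 base and CCACG. Both were searched on both strands in RefSeq promoters of GRCm38.p6, each holding 250 bases before and 50 bases after a gene's start, and all 10 mouse genes had 1 promoter there. ERSE was present in 5 of the 10, namely Hspa5, Hsp90b1, Calr, Canx and Syvn1, against 39 of all 32851 mouse promoters (0.119%). ERSE-II was present in Herpud1 alone among the 10, against 12 of all promoters (0.0365%). The UPRE sequence TGACGTGG and the amino acid response element TGATGNAAT were in none of the 10, against 0.676% and 0.965% of all promoters. No match overlapped another. A match is a description of the letters and not a measured binding site. ERSE is already known from ER chaperone promoters, so its share among the 10 genes is no separate finding. None of these shares was tested.

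For 4 of the 5 ERSE genes, whose RNA level differed between PFKFB4-KO and WT EMT6 cells, the stretch around the element is shown; that of Calr is not printed here. The stretches read 5′ to 3′ on the gene's own strand with the element in capitals. They lie at chr2:34772010-34772058 (+ strand) for Hspa5, chr10:86705518-86705671 (− strand) for Hsp90b1, chr11:50325785-50325833 (− strand) for Canx and chr19:6046517-6046565 (+ strand) for Syvn1, all upstream of the RefSeq start. The GENCODE interval of Hspa5 given further on begins before the RefSeq start and so contains its stretch. The second element of Hsp90b1 lies on the opposite strand and is therefore printed as its reverse complement, beginning CGTGG and ending ATTGG.
Hspa5: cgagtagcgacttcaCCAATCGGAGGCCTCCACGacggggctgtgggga
Hsp90b1: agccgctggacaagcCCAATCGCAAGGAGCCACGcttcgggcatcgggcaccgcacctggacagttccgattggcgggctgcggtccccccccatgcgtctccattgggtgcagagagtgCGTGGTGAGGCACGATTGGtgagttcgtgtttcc
Canx: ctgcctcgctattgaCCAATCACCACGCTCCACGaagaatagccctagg
Syvn1: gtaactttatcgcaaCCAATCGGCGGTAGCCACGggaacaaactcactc

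**Figure D1:**
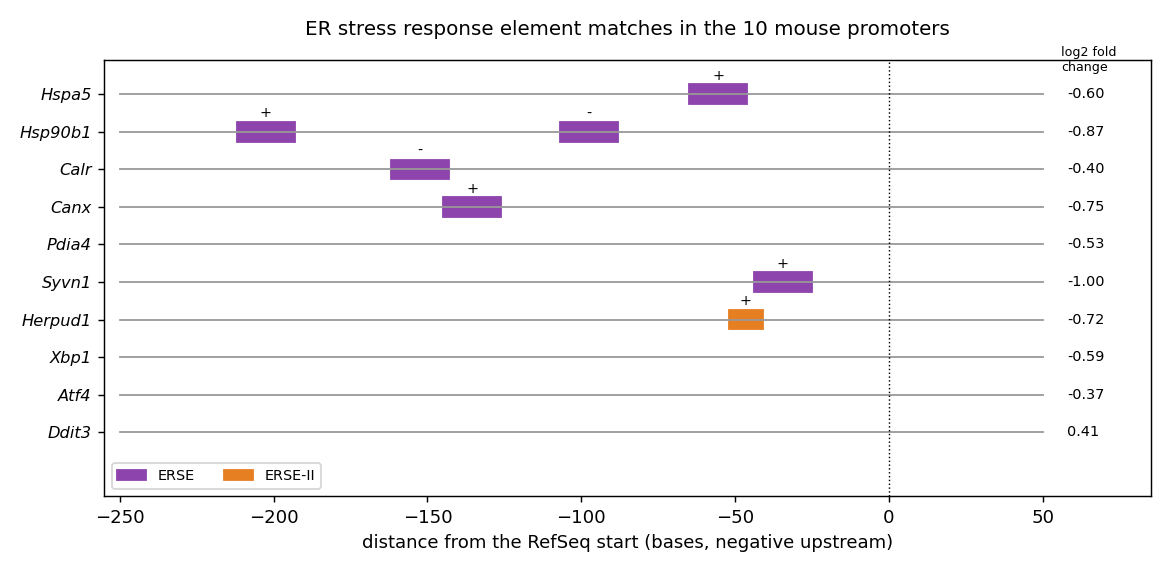
Positions of ERSE (purple) and ERSE-II (orange) matches in the 10 mouse promoters, in bases from the RefSeq start (negative is upstream), with the strand of each match above its box and the EMT6 log2 fold change of PFKFB4-KO against WT at the right. All 7 matches lie upstream of the start, from -212 to -26, and Pdia4, Xbp1, Atf4 and Ddit3 have none.

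In EMT6, RNA of 9 of the 10 genes was lower in PFKFB4-KO than in WT cells, and Ddit3, which encodes the stress-induced transcription factor CHOP, was higher. In MDA-MB-231 the chaperone genes HSP90B1 and CALR were lower, HSPA5 and DDIT3 were higher, and the other 6 genes did not pass the test. HSPA5, the main Hsp70 chaperone of the ER, thus had opposite directions in the lines. Its call in MDA-MB-231 was lost in 8 of 12 alternative settings. Each call is a limma test on log2(TPM + 1) with Benjamini-Hochberg adjustment over all tested genes and a threshold of 0.05. On this scale the change of genes with few TPM is understated.

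These counts stand against a wide change in EMT6. Of 13499 genes tested there, 42.3% were called lower and 14.5% higher, and 56.7% in either direction, which is the table against which 9 lower and 1 higher of 10 is to be read. The median log2 fold change was -0.60 over the 10 genes and -0.21 over all genes tested. In MDA-MB-231, 12.1% of 15299 genes were called lower and 7.97% higher, and 20.0% in either direction, beside 2 lower and 2 higher of the 10, and the median was -0.18 over the 10 genes and -0.04 over all. The groups did not overlap for any of the 10 EMT6 genes, beside 48.3% of all tested genes with every KO library below WT and 17.9% with every KO library above. Groups of MDA-MB-231 overlapped for CANX, PDIA4 and SYVN1, and among the rest 5 had KO below and 2 had KO above, beside 22.9% and 17.2% of all genes.

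TPM is a share of each library, so every fold change depends on how the libraries are scaled against each other. Median-ratio scaling, which sets the typical gene to no change, moved the EMT6 median by 0.20, giving -0.01, and turned the split of called genes to 3349 lower and 3644 higher, against 5705 lower and 1954 higher in TPM. In MDA-MB-231 the same scaling gave 1659 lower and 1727 higher genes, against 1845 and 1220. EMT6 fold changes are therefore also given relative to the median of all genes.

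The libraries resembled each other about equally within groups, with an SD of the log2 difference between 2 libraries of 0.42 to 0.44 (EMT6) and 0.41 to 0.52 (MDA-MB-231). Genes at 1 TPM or more numbered 11871 to 12015 in KO and 12350 to 12426 in WT EMT6 libraries, and 13038 to 13338 in KO and 13423 to 13593 in WT MDA-MB-231 libraries. Pfkfb4 RNA was 6.96, 6.87 and 8.24 TPM in EMT6 KO libraries, against 10.2, 10.5 and 10.4 TPM in WT libraries (log2 fold change -0.45 ± 0.08, SE; limma adjusted p = 0.00487). That call was lost once a trend with exon length was removed (-0.18; adjusted p = 0.134) and under median-ratio scaling (-0.22; adjusted p = 0.0697), and RNA reads outside an edited stretch do not test the edit; PFKFB4 and cell type markers were not analysed here in MDA-MB-231. Among EMT6 cell type markers, Epcam and Cdh1 stayed under 1 TPM in every library, as did Ptprc, Lyz2 and Cd3e of leukocytes and all 4 endothelial markers. The 5 epithelial markers summed to 538 to 564 TPM in KO and 495 to 546 TPM in WT libraries, nearly all of it Krt8, which rose by 0.15 on the log2 scale, a call lost in 7 of 13 alternatives (including without WT replicate 1 or 2 or KO replicate 1 or 3, adjusted p 0.0547 to 0.0953). Krt18, at 15.5 ± 1.12 TPM in KO and 36.3 ± 3.79 TPM in WT libraries, and Krt19, at 0.0177 ± 0.0206 TPM in KO and 1.95 ± 0.127 TPM in WT, fell (-1.17 and -1.53). The 5 mesenchymal markers summed to 3652 to 3804 TPM in KO and 3237 to 3477 TPM in WT, mostly Vim, which rose (0.28), as did Dcn, at 2.52 ± 0.189 TPM in KO and 0.412 ± 0.0570 TPM in WT. Fn1 (-0.45), Zeb1 (-1.09) and Pdgfra (-0.87) fell, the call of Fn1 being lost with the exon length trend removed (-0.01; adjusted p = 0.949). The 5 leukocyte markers summed to 58.4 to 63.8 TPM in KO and 24.7 to 28.7 TPM in WT, mostly Cd68 (1.20); Coro1a rose as well (0.95). The part of these differences in the results was not tested. In bulk RNA, fewer cells of a type and less RNA per cell cannot be told apart.

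**Figure D2:**
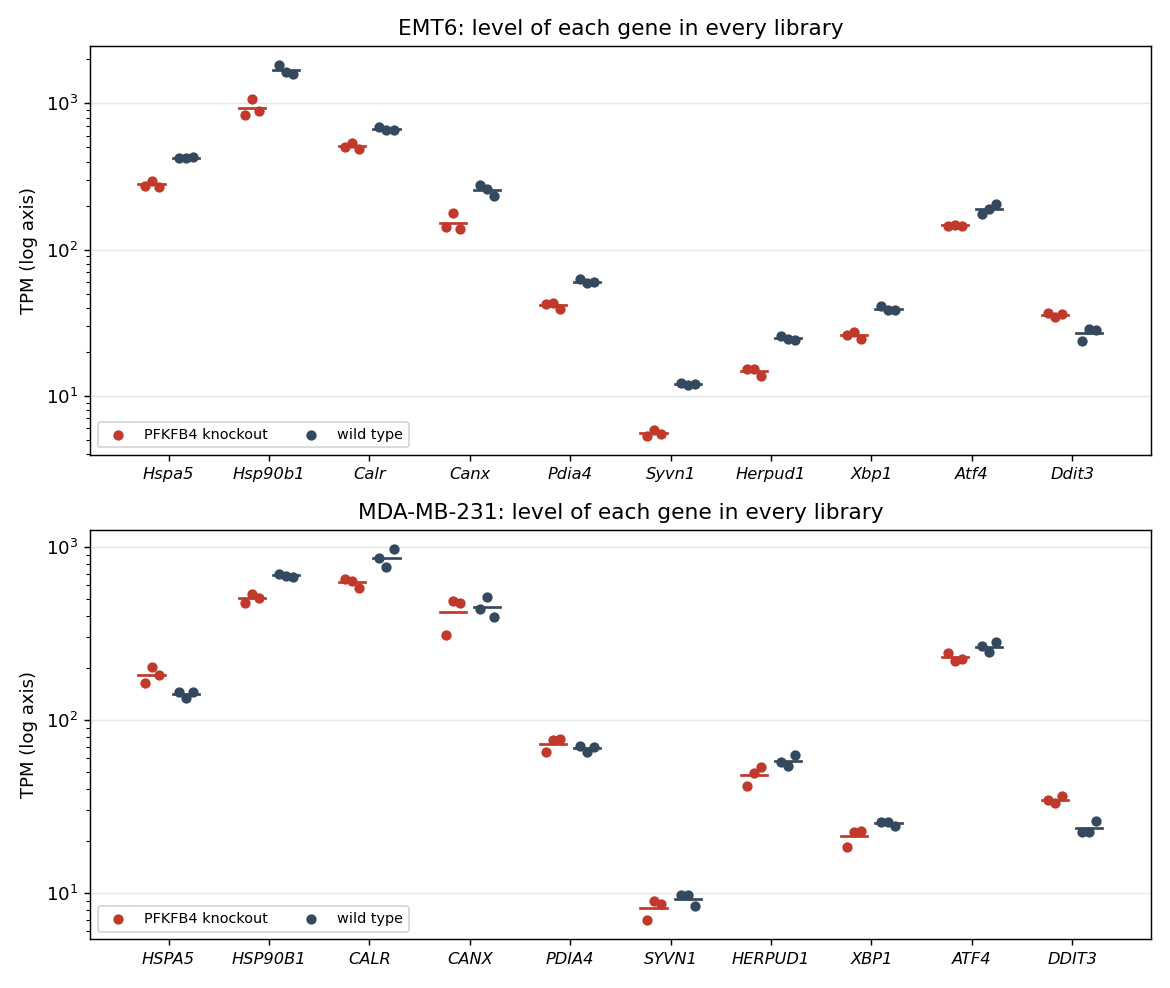
TPM of the 10 genes in every library on a log axis, with PFKFB4-KO libraries (red) left of WT libraries (blue) for each gene and a horizontal line at the group mean (n = 3). In EMT6 (top) the red points lie below the blue ones for every gene but Ddit3, and in MDA-MB-231 (bottom) the points of CANX, PDIA4 and SYVN1 overlap.

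HSPA5 (BiP, GRP78) is an Hsp70 chaperone that binds nascent chains and holds the stress sensors inactive. Hspa5 (ENSMUSG00000026864, chr2:34771970-34777547, + strand, GRCm38) had 271.7, 296.1 and 269.5 TPM in EMT6 KO libraries, against 424.4, 420.0 and 428.2 TPM in WT libraries. The WT libraries were nearly equal and every KO library lay well below them. Hspa5 fell to 65.8% of the WT mean, with a log2 difference of -0.60 ± 0.05 (SE; 95% interval -0.72 to -0.49; limma adjusted p = 0.000349) that was -0.40 relative to the median of all genes. In MDA-MB-231, HSPA5 (ENSG00000044574) had 163.8, 202.0 and 181.7 TPM in KO libraries, against 145.6, 133.9 and 145.6 TPM in WT libraries. Here every KO library lay above the WT libraries, with a wider spread in the knockout (SD 19.1) than in WT (SD 6.76). HSPA5 rose by 0.36 ± 0.09 on the log2 scale (SE; 95% interval 0.14 to 0.58; limma adjusted p = 0.0404). This call was lost in 8 of 12 alternative settings, and the adjusted p ranged from 0.0158 to 0.113. Among these, it was 0.106, 0.0979 and 0.0853 without WT replicates 1, 2 and 3, and 0.113 and 0.103 without KO replicates 2 and 3. The difference between the lines was not tested, because the tables were normalized separately.

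HSP90B1 (GRP94) is the Hsp90 chaperone of the ER and folds a narrow set of clients, among them integrins and Toll-like receptors. In EMT6 KO libraries Hsp90b1 (ENSMUSG00000020048, chr10:86690209-86705509, − strand) had 836.9, 1068 and 883.0 TPM, against 1845, 1637 and 1582 TPM in WT libraries. It was the most abundant of the 10 genes in both EMT6 groups, and it fell to 55.1% of the WT mean (log2 fold change -0.87 ± 0.11, SE; limma adjusted p = 0.00148; -0.66 relative to all genes). Its exons overlap those of Gm15344, Gm25745 and 1810014B01Rik, whose reads the counting may share. MDA-MB-231 KO libraries held 474.5, 530.8 and 504.6 TPM of HSP90B1 (ENSG00000166598), against 697.1, 679.3 and 673.4 TPM in WT libraries. HSP90B1 fell there as well, with a log2 difference of -0.44 ± 0.07 (SE; limma adjusted p = 0.00616), and the call held in all 12 alternatives. HSP90B1 and CALR were the 2 genes called lower in both lines, though the CALR call in MDA-MB-231 was lost in 7 of 12 alternatives.

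Within a library, the ratio of HSPA5 to HSP90B1 does not depend on the library's scaling. The ratio averaged 0.302 ± 0.0239 in EMT6 KO and 0.252 ± 0.0206 in WT libraries (SD, n = 3 each), and 0.362 ± 0.0178 in MDA-MB-231 KO and 0.207 ± 0.00963 in WT libraries. HSPA5 was thus higher relative to HSP90B1 in every KO library of both lines, at 120% of WT in EMT6 and 175% in MDA-MB-231. An exact two-sided permutation test gave p = 0.1 in each line, the smallest that 3 against 3 libraries allow (0.133 adjusted over 8 ratios). These ratios were chosen after values were seen.

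Calreticulin (CALR) and calnexin (CANX) are lectins, soluble and membrane-bound, that hold glycoproteins while they fold. Calr (ENSMUSG00000003814, chr8:84841850-84846934, − strand) had 504.4, 538.6 and 484.8 TPM in EMT6 KO libraries, against 690.2, 661.8 and 661.4 TPM in WT libraries. The groups did not overlap, and Calr fell to 75.9% of WT (log2 fold change -0.40 ± 0.05, SE; limma adjusted p = 0.00142), and the change was -0.19 relative to all genes. In MDA-MB-231, CALR (ENSG00000179218) had 655.0, 635.6 and 576.2 TPM in KO libraries, against 861.8, 761.0 and 974.0 TPM in WT libraries. CALR fell, its log2 difference being -0.47 ± 0.11 (SE; limma adjusted p = 0.0256), with a WT group that spread by 107 TPM (SD). The call was lost in 7 of 12 alternatives, among them median-ratio scaling (adjusted p = 0.0787; range over the alternatives 0.0191 to 0.0865). It was also lost without WT replicate 1 (0.0865) or 3 (0.0617) and without KO replicate 2 (0.0708) or 3 (0.0822).

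Canx (ENSMUSG00000020368, chr11:50293961-50325673, − strand) had 141.7, 176.8 and 138.9 TPM in EMT6 KO libraries, against 277.7, 260.1 and 232.4 TPM in WT libraries. Every KO library lay below every WT library, and Canx fell to 59.4% of WT (log2 fold change -0.75 ± 0.11, SE; limma adjusted p = 0.00272; -0.55 relative to all genes). CANX (ENSG00000127022) of MDA-MB-231 had 308.0, 484.8 and 475.6 TPM in KO libraries, against 437.6, 515.5 and 393.8 TPM in WT libraries. The groups overlapped, and the fold change of -0.11 had a 95% interval of -0.58 to 0.36, which includes both directions (limma adjusted p = 0.735). KO replicate 1 stood apart from its group: without it the log2 fold change was 0.11. CANX had the widest spread of the 10 genes in the MDA-MB-231 knockout, with a coefficient of variation of 23.5%.

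PDIA4 (ERp72) is a protein disulfide isomerase that acts beside HSPA5 in chaperone complexes. In EMT6 KO libraries Pdia4 (ENSMUSG00000025823, chr6:47796141-47813430, − strand, with Mir704 inside its exons) had 42.3, 43.3 and 39.0 TPM, against 62.8, 58.8 and 59.8 TPM in WT libraries. It fell to 68.7% of WT, with little spread in either group (log2 fold change -0.53 ± 0.05, SE; limma adjusted p = 0.000828; -0.33 relative to all genes). MDA-MB-231 gave 65.2, 76.6 and 77.1 TPM for PDIA4 (ENSG00000155660) in KO libraries, against 70.2, 65.2 and 69.9 TPM in WT libraries. These overlapped, and the fold change of 0.09 (95% interval -0.13 to 0.30) did not pass (limma adjusted p = 0.535).

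The summed level of the 5 chaperones and folding enzymes was 1912 ± 183 TPM in KO and 3101 ± 177 TPM in WT libraries of EMT6 (SD, n = 3 each). In MDA-MB-231 the sum was 1804 ± 132 TPM in KO and 2208 ± 51.0 TPM in WT libraries. HSP90B1 makes up the largest share of this sum in EMT6, and CALR in MDA-MB-231. The KO libraries lay below the WT libraries in both lines.

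SYVN1 (HRD1) is the membrane ubiquitin ligase through which misfolded proteins leave the ER, and HERPUD1 binds it and helps to assemble that complex. Syvn1 (ENSMUSG00000024807, chr19:6046576-6053712, + strand) had 5.30, 5.80 and 5.51 TPM in EMT6 KO libraries, against 12.2, 11.8 and 12.1 TPM in WT libraries. It was the least abundant of the 10 genes in EMT6 and fell furthest, to 46.0% of WT (log2 fold change -0.998 ± 0.06, SE; limma adjusted p = 0.000176; -0.79 relative to all genes). Its exons overlap the opposite-strand gene Mrpl49, and the sources used here do not say whether reads were counted by strand. In MDA-MB-231, SYVN1 (ENSG00000162298) had 6.95, 9.03 and 8.68 TPM in KO libraries, against 9.77, 9.73 and 8.37 TPM in WT libraries. The groups overlapped, and the fold change of -0.16 (95% interval -0.47 to 0.15) did not pass (limma adjusted p = 0.418).

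Herpud1 (ENSMUSG00000031770, chr8:94386438-94395377, + strand), the gene with an ERSE-II match, had 15.1, 15.3 and 13.6 TPM in EMT6 KO libraries, against 25.8, 24.6 and 23.99 TPM in WT libraries. It fell to 59.2% of WT, with no overlap (log2 fold change -0.72 ± 0.06, SE; limma adjusted p = 0.000537; -0.51 relative to all genes). HERPUD1 (ENSG00000051108) of MDA-MB-231 had 41.7, 49.4 and 53.6 TPM in KO libraries, against 57.1, 54.0 and 63.1 TPM in WT libraries. All KO values lay below the WT values, narrowly between the nearest libraries, but the fold change of -0.27 (95% interval -0.54 to 0.01) did not pass (limma adjusted p = 0.153). The ratio of HERPUD1 to SYVN1 averaged 2.65 ± 0.198 in KO and 2.06 ± 0.0736 in WT libraries of EMT6, and 5.88 ± 0.371 in KO and 6.31 ± 1.08 in WT libraries of MDA-MB-231, where the groups overlapped (exact permutation p = 0.1 and 0.8).

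XBP1 encodes the transcription factor that IRE1 activates by splicing, and a gene-level TPM does not separate the spliced from the unspliced RNA. Xbp1 (ENSMUSG00000020484, chr11:5520659-5525893, + strand) had 25.9, 27.4 and 24.4 TPM in EMT6 KO libraries, against 41.1, 38.7 and 38.5 TPM in WT libraries. It fell to 65.7% of WT, beside 65.8% for Hspa5 (log2 fold change -0.59 ± 0.06, SE; limma adjusted p = 0.000748; -0.38 relative to all genes). MDA-MB-231 libraries held 18.5, 22.5 and 22.8 TPM of XBP1 (ENSG00000100219) in KO, against 25.7, 25.7 and 24.5 TPM in WT. The groups did not overlap, yet the fold change of -0.24 ± 0.10 (SE) did not pass the test (limma adjusted p = 0.147).

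ATF4 is the transcription factor of the PERK branch and is controlled mainly at translation, so its RNA level need not follow its protein. In EMT6 KO libraries Atf4 (ENSMUSG00000042406, chr15:80255184-80257541, + strand) had 145.5, 148.2 and 145.4 TPM, against 175.3, 190.3 and 205.7 TPM in WT libraries. The KO libraries were almost equal and below all WT libraries (log2 fold change -0.37 ± 0.06, SE; limma adjusted p = 0.00381). Relative to all genes the change was -0.17, and with median-ratio scaling it did not pass (-0.13; adjusted p = 0.149; range over the 13 alternatives 0.00287 to 0.149). ATF4 (ENSG00000128272) of MDA-MB-231 had 244.2, 219.0 and 225.4 TPM in KO libraries, against 265.5, 246.7 and 280.1 TPM in WT libraries. The KO libraries again lay below the WT libraries, and the fold change of -0.20 ± 0.08 (SE) did not pass (limma adjusted p = 0.119).

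DDIT3 (CHOP) is a target of ATF4 that promotes cell death under lasting stress, and it was the 1 gene called higher in both lines. Ddit3 (ENSMUSG00000025408, chr10:127290774-127296288, + strand) had 36.7, 34.5 and 36.2 TPM in EMT6 KO libraries, against 23.7, 28.7 and 28.2 TPM in WT libraries. It rose to 133% of WT (log2 fold change 0.41 ± 0.08, SE; limma adjusted p = 0.00745), or by 0.61 relative to all genes. DDIT3 (ENSG00000175197) of MDA-MB-231 had 34.4, 33.1 and 36.5 TPM in KO libraries, against 22.5, 22.4 and 25.96 TPM in WT libraries. It rose to 147% of WT (log2 fold change 0.54 ± 0.09, SE; limma adjusted p = 0.0100). Both calls held in every alternative run, which were 13 for the mouse line and 12 for the human line. The exons of mouse Ddit3 overlap Mars and Gm4189 on the opposite strand and a second, short Ddit3 gene model on the same strand, so that its reads may be divided among them.

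DDIT3 was higher relative to ATF4 in KO than in WT libraries of both lines. ATF4 on its own did not pass in MDA-MB-231, nor in EMT6 with median-ratio scaling. The ratio of DDIT3 to ATF4 was 0.252, 0.233 and 0.249 in EMT6 KO libraries, against 0.135, 0.151 and 0.137 in WT libraries. In MDA-MB-231 it was 0.141, 0.151 and 0.162 in KO libraries, against 0.0848, 0.0908 and 0.0927 in WT libraries. The KO ratio came to 174% of WT in EMT6 and 169% in MDA-MB-231, with no overlap in either line. An exact two-sided permutation p was 0.1 in each line, again the smallest possible (0.133 adjusted over 8 ratios). The ratio of CALR to CANX did not share a direction, with 3.36 ± 0.278 in KO and 2.63 ± 0.194 in WT libraries of EMT6 and 1.55 ± 0.502 in KO and 1.97 ± 0.499 in WT libraries of MDA-MB-231, where groups overlapped (exact permutation p = 0.1 and 0.3).

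**Figure D3:**
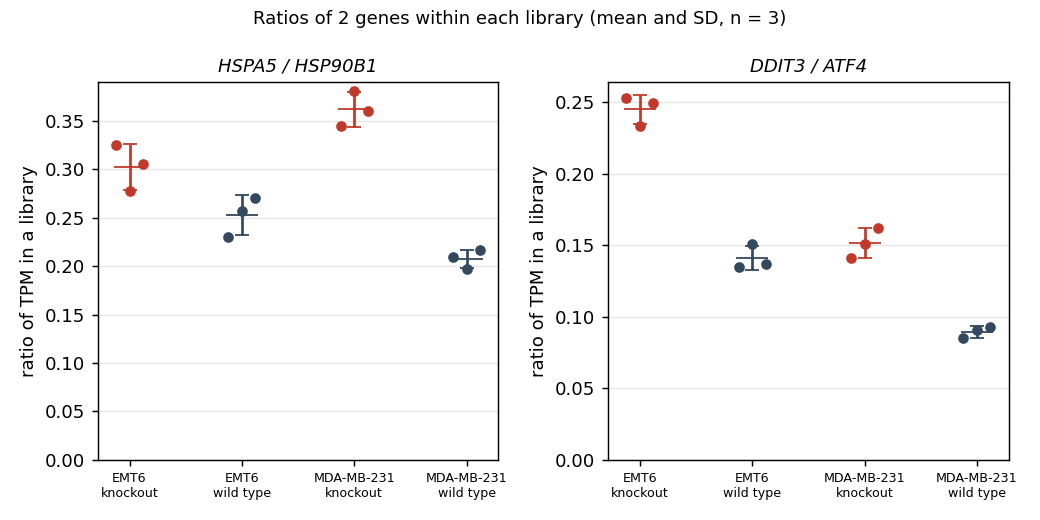
Ratio of HSPA5 to HSP90B1 TPM (left) and of DDIT3 to ATF4 TPM (right) in every library, with KO (red) left of WT (blue) for each line and bars for the mean and SD (n = 3). In both lines and for both ratios every KO library lies above the WT libraries. Both ratios were chosen after values were seen, and the share of other gene pairs without overlap was not computed.

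The order of the genes by level was much the same in KO and WT cells. In EMT6 KO cells it ran from Hsp90b1, Calr, Hspa5, Canx, Atf4, Pdia4, Ddit3, Xbp1 and Herpud1 to Syvn1, and WT cells differed only in having Xbp1 before Ddit3. Neighbours whose libraries overlapped were Canx and Atf4 in EMT6 KO cells and Ddit3 and Herpud1 in EMT6 WT cells. In MDA-MB-231 KO cells the order was CALR, HSP90B1, CANX, ATF4, HSPA5, PDIA4, HERPUD1, DDIT3, XBP1 and SYVN1, and WT cells again had XBP1 before DDIT3. There the libraries of HSP90B1 and CANX overlapped in KO cells and those of XBP1 and DDIT3 in WT cells. In both lines DDIT3 thus stood above XBP1 in KO cells, with no overlap between their libraries. Coefficients of variation ran from 1.07 to 13.8% in KO and 0.972 to 10.3% in WT libraries of EMT6, and from 4.97 to 23.5% in KO and 1.81 to 13.7% in WT libraries of MDA-MB-231.

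Side by side, the log2 fold change had the same sign in both lines for 8 of the 10 genes, with HSPA5 and PDIA4 as the exceptions. Among the 8, CANX, SYVN1, HERPUD1, XBP1 and ATF4 did not pass in MDA-MB-231, and CANX changed sign without KO replicate 1 (0.11). The share of all genes with the same sign in both lines was not computed. Of the 10, 2 (HSP90B1 and CALR) were called lower in both lines, 1 was called higher in both, and HSPA5 was called in opposite directions. In MDA-MB-231 most alternatives lost the calls of HSPA5 (8 of 12) and of CALR (7 of 12). SYVN1, which fell furthest in EMT6, had an interval in MDA-MB-231 that included no change. The KO and WT samples of each line are separate from those of the other line, and no test of the difference between lines was made.

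**Figure D4:**
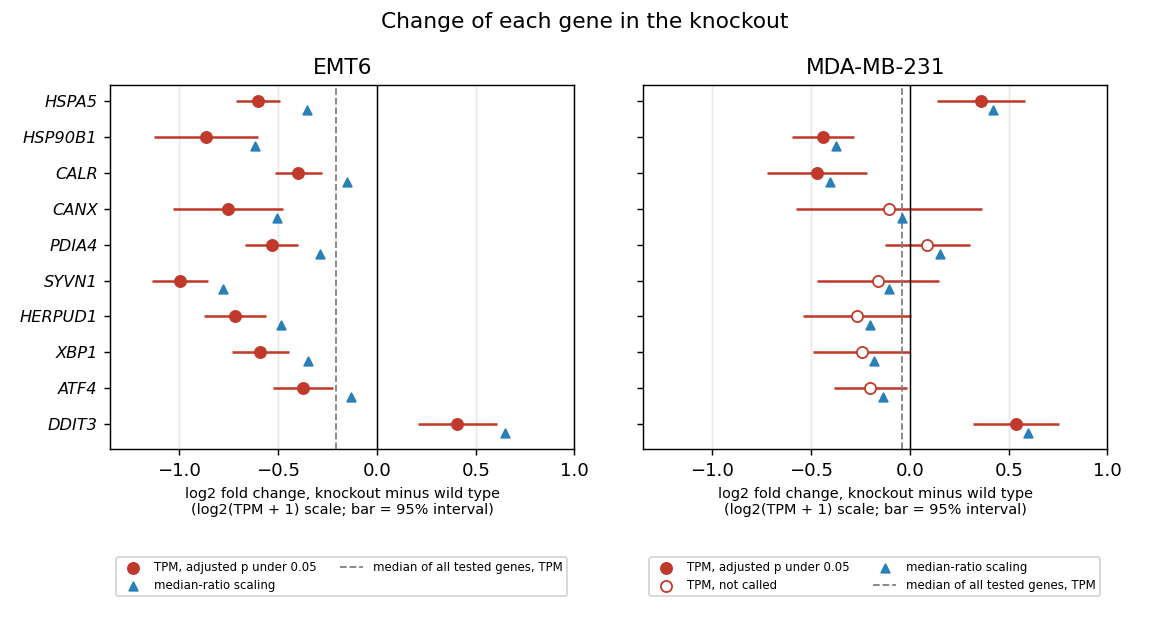
Log2 fold change of each gene, PFKFB4-KO minus WT, in EMT6 (left) and MDA-MB-231 (right) on the log2(TPM + 1) scale, with 95% intervals, filled points for adjusted p under 0.05, triangles for median-ratio scaling and a dashed line at the median of all tested genes. In EMT6 the 9 lower genes lie left of the median of all genes (-0.21), and in MDA-MB-231 only HSPA5, PDIA4 and DDIT3 lie right of 0.

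The surrounding pathway was measured in EMT6 with 127 further genes in 7 lists, of which 124 could be tested. Of these, 72 were lower, 16 were higher and 36 did not pass, with a median log2 fold change of -0.35, against -0.21 over all genes and 42.3% of all genes called lower. Median-ratio scaling gave 43 lower and 31 higher with a median of -0.13. The same scaling gave 3349 lower and 3644 higher of all 13499 genes, with a median of -0.01. These lists were not analysed here in MDA-MB-231, for which no table of gene names was used.

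Enzymes of glycoprotein folding had the lowest median, -0.62, with 9 lower and 0 higher of 11 tested (7 lower and 2 higher with median-ratio scaling). Ganab and Mogs, the glucosidases that trim the sugar chain read by calnexin and calreticulin, had 34.9 ± 1.66 and 12.8 ± 1.33 TPM in KO, against 63.7 ± 2.48 and 23.5 ± 0.891 TPM in WT libraries (SD, n = 3). Their log2 fold changes were -0.85 and -0.83, and Lman1, a cargo receptor for glycoproteins leaving the ER, fell by 0.70 on the log2 scale. Among cofactors of the chaperones, 8 of 16 were lower and 1 was higher, with a median of -0.39. Median-ratio scaling gave 6 lower and 4 higher with a median of -0.16. The shares of all tested genes, beside which both lists stand, were 42.3% lower and 14.5% higher. Dnajc10, a reductase that works with HSPA5 (-0.62), Dnajc3, a co-chaperone of HSPA5 (-0.67), and Mesd, a chaperone of lipoprotein receptors (-0.50), fell, whereas Cnpy2 rose (0.44). Hyou1, the large Hsp70 relative that exchanges nucleotide on HSPA5, was named after its values were seen and had 26.9 ± 3.48 TPM in KO and 47.2 ± 3.18 TPM in WT libraries (-0.79).

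Of 18 genes of disulfide formation, 9 were lower and 2 higher, beside 42.3% and 14.5% of all tested genes. Their median of -0.21 was the same as that of all genes, and with median-ratio scaling it was 0.01, with 5 lower and 4 higher. Ero1l, the oxidase that recharges protein disulfide isomerases, had 26.03 ± 2.65 TPM in KO and 53.0 ± 4.78 TPM in WT libraries (log2 fold change -0.999; limma adjusted p = 0.000708). Pdia3, the isomerase partner of calnexin and calreticulin, and Pdia6 fell by 0.48 and 0.41 on the log2 scale. Prdx4, a peroxiredoxin that also drives disulfide formation, rose to 99.6 ± 2.27 TPM in KO, against 68.5 ± 1.33 TPM in WT libraries, and Txndc12 rose by 0.25.

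ER-associated degradation, the pathway of Syvn1 and Herpud1, had 16 lower and 2 higher of 24 tested genes with a median of -0.33. Median-ratio scaling gave 6 lower and 3 higher. Of all 13499 genes tested, 42.3% were lower and 14.5% higher, and with median-ratio scaling 3349 were lower and 3644 higher. The membrane ubiquitin ligases March6 and Rnf139 fell by 1.06 and 0.67 on the log2 scale, with 4.31 ± 0.281 and 3.38 ± 0.104 TPM in KO, against 10.0 ± 0.680 and 5.99 ± 0.347 TPM in WT libraries. Derl1, a channel subunit, fell by 0.41, a call lost with median-ratio scaling (adjusted p = 0.0615; range over the alternatives 0.00161 to 0.0615). Sel1l, the partner that stabilises Syvn1, was named after its values were seen and changed by -0.60, a call lost once a trend with exon length was removed (adjusted p = 0.156; range over the alternatives 0.00308 to 0.156). Ufd1 (0.18) and Ubxn4 (0.20), cofactors of the segregase VCP, rose, but these calls were lost in 4 and 8 of 13 alternatives. Ufd1 lost it without WT replicate 2 (adjusted p = 0.0705), KO replicate 1 (0.0723) or KO replicate 2 (0.0649), and Ubxn4 without any 1 library other than WT replicate 1 (0.0625 to 0.101). Protein import and N-glycosylation held 14 lower and 3 higher of 25 genes, with a median of -0.28, and 9 lower and 9 higher with median-ratio scaling. Srpr, a subunit of the receptor for the signal recognition particle (-0.88), and the oligosaccharyltransferase subunits Rpn1 (-0.69) and Ostc (-0.42) fell. Sec11c, a catalytic subunit of signal peptidase, rose to 156 ± 3.58 TPM in KO, against 96.3 ± 3.45 TPM in WT libraries (0.69), and the oligosaccharyltransferase subunits Ost4 and Ddost rose by 0.27 and 0.18.

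The sensors of all 3 branches were lower in EMT6 KO cells. Ern1, which encodes IRE1, had 3.55, 4.21 and 3.64 TPM in KO libraries, against 7.34, 6.22 and 6.46 TPM in WT libraries (log2 fold change -0.68; limma adjusted p = 0.00187). Atf6 had 3.95, 4.24 and 3.90 TPM in KO, against 7.46, 6.42 and 6.67 TPM in WT libraries (-0.64; adjusted p = 0.00129). Eif2ak3, which encodes PERK, had 2.90, 2.35 and 2.22 TPM in KO, against 6.49, 3.57 and 4.05 TPM in WT libraries. WT replicate 1 was far above the other 2, and the call for Eif2ak3 (-0.68; adjusted p = 0.0291) was lost in 5 of 13 alternatives, including median-ratio scaling (0.0799) and leaving out KO replicate 2 or 3 (0.0770 and 0.0844; range 0.0176 to 0.148). In the whole list, 10 of 15 were lower and 3 higher, beside 42.3% and 14.5% of all tested genes. The list had a median of -0.37 (6 lower and 3 higher with median-ratio scaling). Atf6b, the paralogue of Atf6, fell to 12.8 ± 1.597 TPM in KO, against 30.1 ± 1.96 TPM in WT libraries (-1.18), and Creb3l2, another membrane-anchored transcription factor, fell by 0.58. Its relative Creb3 rose (0.39), as did Rtcb, the ligase that joins spliced XBP1 RNA (0.13), and Eif2ak2, a kinase activated by double-stranded RNA (0.21), with the calls of Rtcb and Eif2ak2 lost in 8 and 6 of 13 alternatives. Rtcb lost it without any 1 library (adjusted p 0.0587 to 0.120), and Eif2ak2 without WT replicate 2 or 3 or KO replicate 2 or 3 (0.106 to 0.124).

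Genes listed as targets of ATF4 and CHOP were divided, with 6 lower and 5 higher of 15 tested, beside 42.3% and 14.5% of all tested genes. Their median of -0.15 became 0.10 with median-ratio scaling (4 lower and 6 higher). Atf3, a transcription factor induced by many stresses, had 7.32, 8.43 and 6.41 TPM in KO libraries, against 1.38, 1.14 and 1.88 TPM in WT libraries (log2 fold change 1.77; limma adjusted p = 0.000413). Ppp1r15a (GADD34), the phosphatase subunit that reverses the PERK signal, had 42.96, 40.25 and 33.83 TPM in KO, against 16.2, 20.1 and 18.2 TPM in WT libraries (1.06). Cth, an enzyme of cysteine synthesis, rose by 1.02. These 3 genes moved in the direction of Ddit3. Ddit4, an inhibitor of mTORC1 signalling, fell to 15.6 ± 0.296 TPM in KO, against 35.4 ± 3.35 TPM in WT libraries (-1.12), and the death receptor gene Tnfrsf10b (-0.76) and Ppp1r15b, the constitutive counterpart of Ppp1r15a (-0.52), fell too. Trib3 (-0.50) and Chac1 (0.40), both known CHOP-related targets and named after their values were seen, were called in opposite directions, the call of Chac1 being lost without KO replicate 3 (adjusted p = 0.0538; range over the alternatives 0.00531 to 0.0538).

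**Figure D5:**
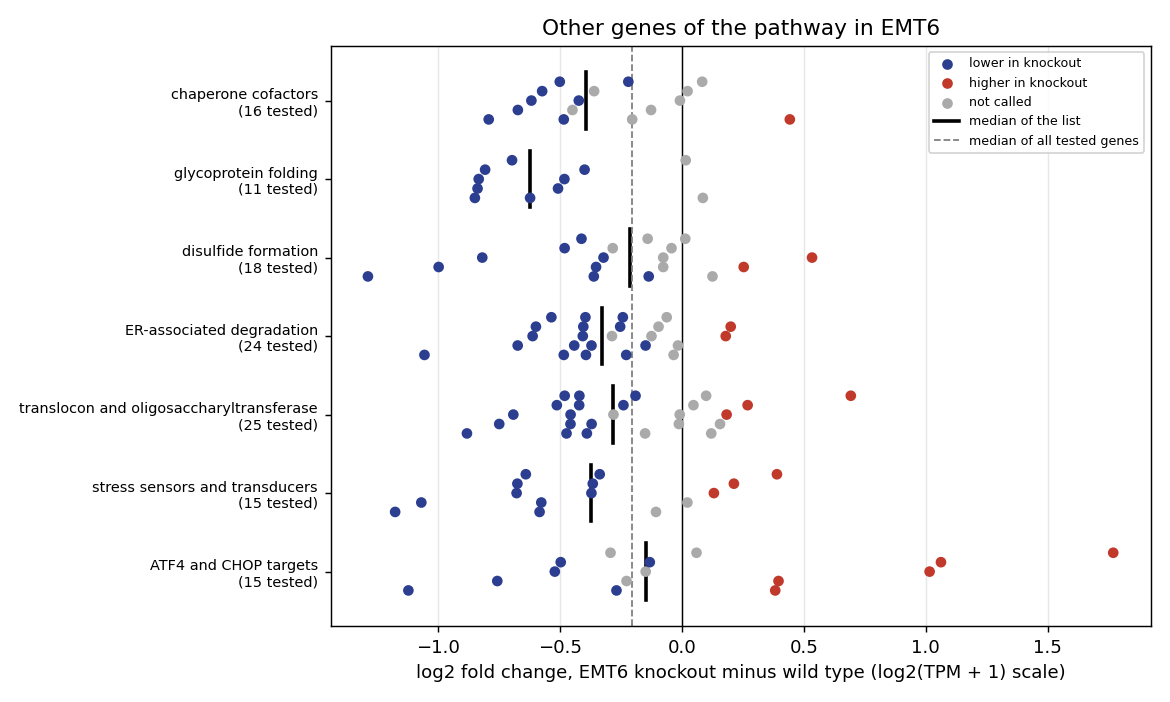
Log2 fold change, EMT6 PFKFB4-KO minus WT, of 124 further pathway genes in 7 lists on the log2(TPM + 1) scale, with genes called lower in blue, higher in red and not called in grey, a black bar at each list's median and a dashed line at the median of all tested genes (-0.21). Glycoprotein folding lies furthest left (median -0.62), and the ATF4 and CHOP targets hold the genes furthest right, Atf3, Ppp1r15a and Cth.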

How the data were processed

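The authors deposited TPM values in 1 table per cell line. Replicates are biological according to the labels, but separate cultures are not mentioned, and p-values then reflect only the spread among the 3 libraries of a group. Tools named per the submitters' processing notes are Subread 1.6.4, featureCounts, TopHat2 2.1.1 and CASAVA 1.8.2, and builds mm10 and GRCh38.p7. Settings, strand handling included, are not given in the sources used. TPM keeps no read depth, so how many reads lie behind a value is unknown. The knockout columns carry the codes A7 and G2, which no label explains, and were taken as the knockout by elimination, since the remaining columns are named WT.

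Genes with at least 0.5 TPM in 3 of a line's 6 libraries were tested on log2(TPM + 1) with limma 3.58.1 in R 4.3.3 (mean-variance trend, Benjamini-Hochberg adjustment over all tested genes, threshold 0.05), each line alone with its 6 libraries. All 10 genes passed this filter in both lines. A 0.1 pseudocount, a filter of at least 1 TPM, no filter, no trend, median-ratio scaling, a replicate block, removal of the exon length trend (EMT6 only) and leaving out each library were tried. The code was tested on simulated data. Promoters and motifs were read with Python 3.11.15 from RefSeq on GRCm38.p6, and mouse gene positions come from GENCODE on the same assembly. Mouse symbols were matched for 54097 of 54331 identifiers. Human identifiers other than the 10 were not named here.

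The 10 genes and the lists were chosen with earlier results of these data known. Besides the 10, the text names the called genes of smallest adjusted p, up to 3 in each direction of a list, the sensors Ern1, Eif2ak3 and Atf6, and Pfkfb4. Cell type markers come from lists chosen in the same way. Markers named singly, and all other genes outside this rule, were named after their values were seen.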

Additional observations from a re-analysis of the deposited data

Results flagged for a closer look

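HSPA5 was flagged because its libraries moved in opposite directions in the lines, with every KO library below the WT libraries in EMT6 (log2 fold change -0.60) and every KO library above them in MDA-MB-231 (0.36). The MDA-MB-231 call was lost in 8 of 12 alternatives, and the difference between the lines was not tested.

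A second Ddit3 gene model on GRCm38 (ENSMUSG00000116429, chr10:127290829-127293753, with 105 nt of exons that overlap those of the main model) was flagged as a signal outside the comparisons. It had 38.3 TPM in EMT6 KO replicate 1 and was listed at 0 in the other 2 KO libraries and in all 3 WT libraries. It did not pass the filter and was not tested. The main Ddit3 model had 36.7, 34.5 and 36.2 TPM in the 3 KO libraries.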

How the results depend on the processing

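In EMT6 the 9 lower and 1 higher of the 10 genes held in all 13 alternatives but 1: median-ratio scaling gave 8 lower, without Atf4. Among the other 124 pathway genes of EMT6, 72 were lower and 16 higher, beside 42.3% and 14.5% of all tested genes. Median-ratio scaling gave 43 lower and 31 higher, beside 3349 lower and 3644 higher of all 13499 genes. Removal of the exon length trend gave 48 lower and 26 higher, beside 3589 lower and 3124 higher of all 13487 genes. In MDA-MB-231, 2 of the 10 were lower and 2 higher. Only 1 was lower with median-ratio scaling, with no filter and with the replicate block, and only 1 was higher with no filter, with no mean-variance trend and with the replicate block. Leaving out each library gave 1 to 2 lower and 1 to 2 higher. Over 70 tested EMT6 genes named in the text and 10 MDA-MB-231 genes, 49 of 908 and 15 of 120 combinations of a gene and an alternative lost the call. Calr4 alone gained one, without KO replicate 3 (-0.40; adjusted p = 0.0243), and Hnrnpa3 alone reversed, at 0.0077 with the exon length trend removed (adjusted p = 0.923). The causes of these changes were not tested.

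Replicate numbers did not pair the samples: the correlations of deviations for equal numbers were 0.06, -0.02 and 0.07 in EMT6 and 0.00, 0.11 and -0.13 in MDA-MB-231. With the replicate block the EMT6 counts of the 10 genes were 9 lower and 1 higher as before. The ratios within libraries were also recomputed without each library, an alternative chosen after seeing the data. With 3 libraries a group such a mean can move only within 1 SD, so this says nothing about stability. The exon length alternative was not run in MDA-MB-231, for which no exon lengths were used. TPM gives no read depth, so the precision of low values is unknown.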

Other observations

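ERSE was also present in the promoters of 10 tested EMT6 genes outside the 10 described above. Of these, 7 were lower in PFKFB4-KO than in WT EMT6 cells, 0 were higher and 3 did not pass the limma test, with a median log2 fold change of -0.42. Among all 9124 tested genes with a RefSeq promoter, 44.8% were lower and 15.4% higher, with a median of -0.21. The 7 lower genes were Pan2, a subunit of a poly(A) nuclease (-0.82), Dnajc3 (-0.67), Adcy3, an adenylate cyclase (-0.62), Alg12, a mannosyltransferase that builds the N-glycan precursor (-0.53), Creld2, an ER stress-induced protein (-0.42), Pdia6 (-0.41) and Hnrnpa3, an RNA-binding protein (-0.28). The call of Hnrnpa3 was lost with median-ratio scaling (-0.04; adjusted p = 0.664), with the exon length trend removed (0.0077; 0.923) and without KO replicate 1 (0.0629) or 3 (0.0520), with a range over the alternatives of 0.0199 to 0.923. Calr4 (-0.21), Acacb (-0.12) and Zfp57 (-0.03) did not pass, though Calr4 did without KO replicate 3 (-0.40; adjusted p = 0.0243; range over the alternatives 0.0243 to 0.677). For the other sequences the 10 genes described above were kept in. The share of tested genes called lower was 54.5% of 11 with ERSE-II (Herpud1 among them), 57.3% of 89 with UPRE and 24 of 48 genes with the amino acid response element. These genes were picked by promoter letters and named after their values were seen, and the counts are a description with no test. Dnajc3, Creld2 and Pdia6 also belong to the pathway lists above, so the ERSE genes are not a separate set.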
